A study of Mus musculus with 6 samples.

Results

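Interferon-stimulated genes were followed in whole ovaries of mice at 9 days post partum. The members were 50 genes named on a list and found by gene symbol among the 47205 genes of the deposited expression table, 42 of them counted as type I-like and 8 as type II-like. The cKO ovaries (3 libraries) came from mice in which SRSF1, a splicing factor, was knocked out in granulosa cells, which enclose and nourish the oocyte, and were set against ovaries labelled WT (3 libraries). The sources used here do not give the driver and allele of the knockout, the alleles behind the label WT or the strain. Nor do they say whether each library was a separate animal, so p-values cover only the spread between these samples, which may be technical. Levels are in FPKM (fragments per kilobase of a gene, corrected for library depth), and each library held 16.8 to 18.7 M reads recovered from the table.

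Interferons are secreted signals that warn cells of infection. Type I interferons act through a complex that holds STAT2 and IRF9, which binds the interferon-stimulated response element and switches on antiviral effectors. Type II interferon (interferon gamma), made by T and NK cells, acts at gamma-activated sites and, through IRF1, induces the guanylate-binding proteins and immunity-related GTPases. Many genes answer to both signals, so the division into type I-like and type II-like is one of emphasis. In ovaries without infection these genes are usually quiet, with a low basal level in many cells.

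The knocked-out gene was read first. Srsf1 stood at 20.3, 26.9 and 21.4 FPKM in cKO against 39.9, 49.6 and 46.3 FPKM in WT, with no overlap of the groups (limma, log2 fold change -0.96, SE 0.13, adjusted p = 0.320). Whole ovaries hold many cells in which the gene was not targeted. In such bulk samples more cells of a type and more RNA per cell cannot be told apart, and this holds for every value below.

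All 50 members had a higher mean in cKO than in WT, and for all 50 the highest of the 6 values was that of cKO replicate 1, against 13.8% of all tested genes. The 3 cKO libraries were far apart from each other. The summed level of the 50 members was 1507, 343 and 483 FPKM in cKO replicates 1, 2 and 3, against 311, 269 and 314 FPKM in WT. Set against the WT mean of each gene, the median fold over the 50 members was 6.89 in cKO replicate 1, 1.28 in replicate 2 and 2.06 in replicate 3, where the median of all tested genes was 0.997, 0.996 and 1.01. Replicate 1 thus held most of the excess in the group mean, replicate 3 a smaller part, and replicate 2 little.

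No member passed the test. The limma fit on log2(FPKM + 1) covered the 14714 genes that averaged 1 FPKM or more, 49 members among them, and 0 members had an adjusted p under 0.05 (smallest 0.736), against 0.00680% of all tested genes higher and 0.0136% lower. At an unadjusted p under 0.05, 20 members were higher and 0 lower, where 3.64% of all tested genes were higher and 2.70% lower. The member left untested was Oas3, below the filter. Of the 49 tested members, 12 had a WT mean under 1 FPKM and passed the filter only through cKO, so the tested members are a selected set. Among the 37 members with a WT mean of at least 1 FPKM, 15 were higher at an unadjusted p under 0.05 in a fit filtered on the WT mean alone, where 3.23% of all genes were, and the 3 cKO libraries lay above the 3 WT libraries in 23, against 5.85% of all genes filtered in the same way. Over all 50 members the groups were apart in 31, where 6.37% of tested genes were higher in this sense and 5.89% lower, and no member was lower.

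**Figure D1:**
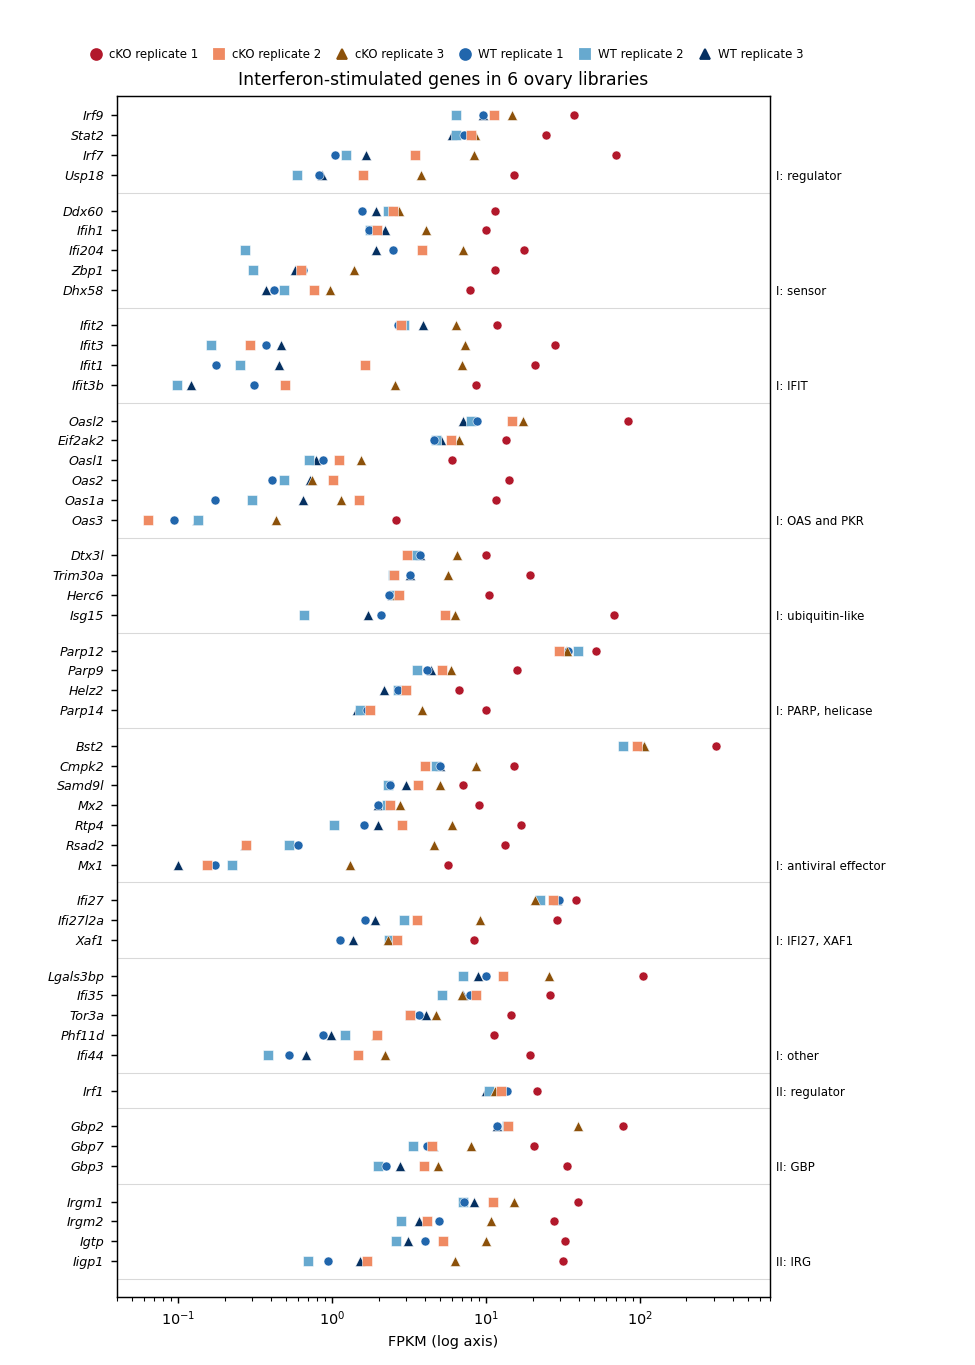
Level of each of the 50 members in the 6 libraries, in FPKM on a log axis, grouped by role (I for type I-like, II for type II-like) and ordered by WT mean within a role. Each symbol is 1 library. The cKO replicate 1 symbol lies farthest right in every row, and cKO replicate 2 lies among or close to the WT symbols in most rows.

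Without cKO replicate 1 most members were still higher in cKO, by less. Of 43 members then tested, 41 were higher, with a median log2 fold change of 0.52, where it was 1.13 over the 49 tested with all libraries. This set too is selected. Usp18, Ifit1, Ifit3, Oasl1, Rsad2 and Ifi44 had a WT mean under 1 FPKM and passed the filter only through cKO replicates 2 and 3. At an unadjusted p under 0.05, 20 members were higher, where 2.85% of all tested genes were, and the smallest adjusted limma p was 0.447, for Oasl2, with 0.00681% of all tested genes past 0.05 and higher. Usp18, Ifit1 and Ifi44 were among these 20, and no fit without cKO replicate 1 filtered on the WT mean is given. The 31 members whose groups did not overlap were those in which both cKO replicates 2 and 3 lay above every WT library, a pattern found in 10.8% of all tested genes. Replicate 3 lay above every WT library in 44 members (27.8% of tested genes), and replicate 2 in 33 (31.7% of tested genes). Replicate 2 lay below the WT mean in 10 members, namely Ifit2, Ifit3, Oas3, Trim30a, Dtx3l, Parp12, Rsad2, Cmpk2, Mx1 and Tor3a. A fold above 2 was seen in 47 members in replicate 1 (2.56% of tested genes), in 8 in replicate 2 (2.20%) and in 28 in replicate 3 (1.94%).

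Promoters of a few members are shown to let matches to the interferon elements, where present, be seen beside the levels. The sequences are from RefSeq on GRCm38.p6, whose coordinates are not those of the deposited table (GRCm39). Each is the 150 bases before the annotated start, written 5′ to 3′ along the gene, with matches in capitals. The first string searched, on either strand, was the core of the interferon-stimulated response element, GAAA and a second GAAA with 2 bases of any kind between them. The other, shown in Irf1, was the gamma-activated site TTCNNNGAA, which reads alike on both strands. The windows are chr19:34640739-34640888, plus strand for Ifit1, chr4:156200819-156200968, minus strand for Isg15, chr7:141266425-141266574, minus strand for Irf7, chr12:26456453-26456602, minus strand for Rsad2, chr3:142620513-142620662, plus strand for Gbp2 and chr11:53769864-53770013, plus strand for Irf1, the first of 2 starts in the table for that gene.
Ifit1: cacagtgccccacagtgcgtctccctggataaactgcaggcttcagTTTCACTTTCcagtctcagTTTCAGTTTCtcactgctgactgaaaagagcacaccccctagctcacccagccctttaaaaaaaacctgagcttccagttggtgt
Isg15: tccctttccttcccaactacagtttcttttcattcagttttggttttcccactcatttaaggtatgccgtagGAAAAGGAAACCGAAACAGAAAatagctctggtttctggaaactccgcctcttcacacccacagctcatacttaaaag
Rsad2: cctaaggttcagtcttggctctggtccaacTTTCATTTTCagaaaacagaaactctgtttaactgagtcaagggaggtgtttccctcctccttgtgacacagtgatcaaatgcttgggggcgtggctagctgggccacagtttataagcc
Gbp2: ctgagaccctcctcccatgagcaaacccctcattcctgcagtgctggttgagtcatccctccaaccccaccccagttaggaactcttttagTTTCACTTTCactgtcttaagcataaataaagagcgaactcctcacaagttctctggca
Irf1: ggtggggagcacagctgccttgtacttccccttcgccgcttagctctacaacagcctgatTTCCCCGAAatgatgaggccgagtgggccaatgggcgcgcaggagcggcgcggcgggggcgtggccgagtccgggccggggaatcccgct
Irf7: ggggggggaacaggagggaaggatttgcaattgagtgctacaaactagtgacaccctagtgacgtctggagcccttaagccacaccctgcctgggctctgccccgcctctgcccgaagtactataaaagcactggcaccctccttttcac
Ifit1 held a pair of separate matches, with first bases 104 and 85 bases before the start. Isg15 held 3 overlapping matches, at 78, 72 and 66 bases. Rsad2 and Gbp2 held 1 match each, at 120 and 59 bases, and the Irf1 window held 1 gamma-activated site match at 90 bases. The Irf7 window held neither string, which says only that these letters are not in it.

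Over all members, 36 of 50 had an entry in the promoter table, with windows from 250 bases before to 50 bases after the start. The response element core was found in 19 of the 36 (52.8%), against 3.99% of 27025 genes. TTCNNNGAA was found in 9 of 36 (25.0%), against 9.55% of all genes. By class, the response element core stood in 13 of 29 type I-like genes (44.8%) and in 6 of 7 type II-like genes (85.7%). TTCNNNGAA stood in 5 of 29 type I-like genes (17.2%) and in 4 of 7 type II-like genes (57.1%). A match is a string of letters and not a bound site.

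In the 4 type I-like regulators the cKO libraries lay above WT without overlap (6.37% of tested genes). Irf1, the type II-like regulator described further on, overlapped. Irf7, the factor that amplifies type I interferon production (chr7:140843096-140846412 on the minus strand), stood at 70.2, 3.44 and 8.31 FPKM in cKO against 1.05, 1.22 and 1.65 FPKM in WT. Its lowest cKO library was thus above the highest WT library, and cKO replicate 1 was 53.7-fold over the WT mean (limma, log2 fold change 2.64, SE 0.91, adjusted p = 0.761). Usp18, which strips ISG15 from proteins and dampens the receptor, stood at 15.1, 1.59 and 3.78 FPKM in cKO against 0.820, 0.590 and 0.856 FPKM in WT. Irf9, the DNA-binding subunit of the type I complex, was already expressed in WT, with 36.99, 11.3 and 14.8 FPKM in cKO and 9.59, 6.38 and 9.52 FPKM in WT. Its partner Stat2 had 24.5, 7.95 and 8.51 FPKM in cKO and 7.16, 6.37 and 6.01 FPKM in WT. Irf9 and Stat2 therefore differed by less, with log2 fold changes of 1.05 (SE 0.40) and 0.79 (SE 0.38) and a higher WT level.

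The sensors detect foreign nucleic acid in the cell. Ifi204, a mouse DNA sensor, stood at 17.7, 3.85 and 7.10 FPKM in cKO against 2.47, 0.273 and 1.93 FPKM in WT, and had one of the 5 smallest p-values among members (limma, log2 fold change 1.94, SE 0.56, adjusted p = 0.740). Its groups were apart, although WT replicate 2 was far below the other WT libraries. Ifih1, which encodes the RNA sensor MDA5, had 10.01, 1.94 and 4.04 FPKM in cKO and 1.73, 1.75 and 2.19 FPKM in WT, so cKO replicate 2 lay within the WT range. Ddx60, a helicase, had 11.4, 2.49 and 2.72 FPKM in cKO and 1.55, 2.31 and 1.92 FPKM in WT. Replicate 1 was 5.30-fold for Ifih1 and 5.89-fold for Ddx60, and the other cKO libraries were at 1.03-fold to 2.14-fold. Dhx58, the LGP2 helicase, and Zbp1, a sensor of Z-form nucleic acid, were under 1 FPKM in every WT library and reached 7.80 and 11.4 FPKM in cKO replicate 1.

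The IFIT genes bind viral RNA, and the 4 members lie together on chr19:34527961-34627409 (GRCm39), a stretch of 99.4 kb. Ifit3 and Ifit1 gave the highest folds of the set in replicates 1 and 3. Ifit3 stood at 27.8, 0.292 and 7.31 FPKM in cKO against 0.369, 0.164 and 0.465 FPKM in WT. Replicate 1 was 83.7-fold and replicate 3 was 21.97-fold over the WT mean, while replicate 2 was inside the WT range at 0.877-fold. Ifit1 stood at 20.7, 1.64 and 6.94 FPKM in cKO against 0.176, 0.250 and 0.451 FPKM in WT, and here replicate 2 too lay above every WT library, at 5.60-fold. Ifit1 had the smallest unadjusted limma p of all members (0.00666, adjusted p = 0.736; log2 fold change 2.58, SE 0.68), with 1034, 83 and 336 reads in cKO and 8, 12 and 22 reads in WT. Ifit2 was higher in WT than its neighbours, with 11.8, 2.78 and 6.36 FPKM in cKO and 2.69, 2.91 and 3.87 FPKM in WT. Its replicate 1 fold was 3.75. Ifit3b stood at 8.62, 0.490 and 2.54 FPKM in cKO against 0.312, 0.0986 and 0.121 FPKM in WT. Ifit3 and Ifit3b are close copies, and how reads were split between them is not given, so their separate levels are uncertain. Ifit1 and Ifit3b also overlap Ifit1bl1 on the other strand, whose mean over the 6 libraries was 0.444 FPKM.

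The OAS enzymes make the second messenger that activates RNase L, and PKR (Eif2ak2) halts translation. In 5 of 6 genes cKO was higher without overlap (6.37% of tested genes). Oasl2 was the most abundant, with 82.9, 14.7 and 17.3 FPKM in cKO and 8.76, 8.02 and 7.04 FPKM in WT. It had a log2 fold change of 1.70 (SE 0.59) with all libraries and of 0.93 (SE 0.14) without cKO replicate 1. Eif2ak2 had 13.5, 5.91 and 6.69 FPKM in cKO and 4.57, 4.74 and 5.12 FPKM in WT, a smaller shift that was present in each cKO library. Oas2 had 14.1, 1.01 and 0.736 FPKM in cKO and 0.406, 0.487 and 0.719 FPKM in WT. Its replicate 1 level was 26.2-fold over the WT mean, and replicates 2 and 3 were 1.87-fold and 1.37-fold. Oas1a was the other OAS gene with more in replicate 2 than in replicate 3, at 1.50 and 1.14 FPKM, with 11.5 FPKM in replicate 1. In Oas3 cKO replicate 2 was the lowest of the 6 libraries, with 2.60, 0.0635 and 0.432 FPKM in cKO and 0.0945, 0.134 and 0.132 FPKM in WT, and it rested on 6 to 39 reads outside replicate 1.

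Among the ubiquitin-like genes and ligases, Isg15 stood out. This ubiquitin-like modifier (chr4:156283881-156285275, minus strand) stood at 67.3, 5.44 and 6.27 FPKM in cKO against 2.07, 0.655 and 1.72 FPKM in WT. Its groups did not overlap, and unlike Ifit1 or Rsad2 it had nearly equal levels in cKO replicates 2 and 3 (limma, log2 fold change 2.62, SE 0.87, adjusted p = 0.760). Herc6, the ligase that attaches Isg15 in mice, had 10.4, 2.71 and 2.63 FPKM in cKO and 2.33, 2.52 and 2.43 FPKM in WT. Outside replicate 1 the folds over the WT mean were 1.12 and 1.08. Trim30a, a ligase that restrains inflammatory signalling, had 19.2, 2.51 and 5.67 FPKM in cKO and 3.19, 2.49 and 3.20 FPKM in WT. Dtx3l, the ligase partner of Parp9, had 10.02, 3.04 and 6.42 FPKM in cKO and 3.74, 3.45 and 3.72 FPKM in WT, so cKO replicate 2 was the lowest of the 6.

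The PARP genes and Helz2, which modify proteins with ADP-ribose or act as coactivators, gave at most 6.38-fold in replicate 1. Parp12 and Ifi27 had the lowest log2 fold changes of the set. Parp12 had 51.96, 29.5 and 33.4 FPKM in cKO and 33.9, 39.4 and 32.99 FPKM in WT. Its log2 fold change was 0.07 (SE 0.21, limma, adjusted p = 0.955), and -0.17 (SE 0.13) without cKO replicate 1. Parp9 had 15.9, 5.13 and 5.92 FPKM in cKO and 4.11, 3.58 and 4.37 FPKM in WT. Parp9 and Dtx3l overlap on opposite strands, and since the strandedness of the counting is not given, their reads cannot be told apart with certainty. Parp14 had 9.93, 1.77 and 3.81 FPKM in cKO and 1.69, 1.52 and 1.45 FPKM in WT. Helz2 was at most 3.02 FPKM outside cKO replicate 1, with 6.64 FPKM in that library.

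Among the antiviral effectors, Bst2 (tetherin), which holds budding virus at the cell surface, was the most abundant member, with 309.6, 94.9 and 106 FPKM in cKO and 97.3, 76.99 and 106 FPKM in WT. Replicate 1 was high, and replicates 2 and 3 were within or at the edge of the WT range. Samd9l, a restriction factor, stood at 7.10, 3.59 and 4.999 FPKM in cKO against 2.38, 2.29 and 3.01 FPKM in WT, a modest shift in all 3 cKO libraries. Replicate 3 had 53.7% of the replicate 1 excess over the WT mean, the highest share among the 50 members. Its log2 fold change was 0.78 (SE 0.21, limma, adjusted p = 0.740). Rtp4, a receptor transporter with antiviral activity, had 16.9, 2.83 and 5.996 FPKM in cKO and 1.60, 1.03 and 1.97 FPKM in WT (log2 fold change 1.65, SE 0.51), and overlaps Masp1 on the other strand. Rsad2 (viperin) and Cmpk2, a nucleotide kinase, are neighbours within 37.1 kb at chr12:26492742-26529836. Rsad2 had 13.2, 0.275 and 4.55 FPKM in cKO and 0.598, 0.523 and 0.272 FPKM in WT, and Cmpk2 had 15.1, 3.98 and 8.60 FPKM in cKO and 5.03, 4.70 and 4.99 FPKM in WT. In both genes cKO replicates 1 and 3 were high and replicate 2 was not. Mx1 and Mx2, dynamin-like GTPases that block viral replication, differed in this. Mx1 followed the pattern of Rsad2 at 5.65, 0.154 and 1.31 FPKM in cKO and 0.172, 0.224 and 0.1003 FPKM in WT. Mx2 had 8.95, 2.39 and 2.77 FPKM in cKO and 1.97, 2.27 and 1.97 FPKM in WT, with all cKO libraries above WT.

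The IFI27 family and Xaf1, a proapoptotic factor, were mixed. Ifi27 lay on both sides of WT, above the WT range in cKO replicate 1 and below it in replicate 3, with 38.6, 27.3 and 20.7 FPKM in cKO and 29.6, 22.3 and 28.7 FPKM in WT (limma, log2 fold change 0.07, SE 0.22, adjusted p = 0.964), and without cKO replicate 1 it was -0.16 (SE 0.18). Its neighbour Ifi27l2a stood at 28.7, 3.54 and 9.07 FPKM in cKO against 1.64, 2.93 and 1.90 FPKM in WT, a log2 fold change of 1.83 (SE 0.62). The genes of this pair overlap on opposite strands, so the contrast between them carries the same doubt about strand. Xaf1 had 8.37, 2.62 and 2.30 FPKM in cKO and 1.12, 2.34 and 1.37 FPKM in WT. Of the remaining type I-like genes, Lgals3bp, a secreted glycoprotein, had 104, 12.9 and 25.6 FPKM in cKO and 9.90, 7.08 and 8.80 FPKM in WT. Ifi44 was at most 0.673 FPKM in WT and had 19.3, 1.48 and 2.20 FPKM in cKO. Phf11d had 11.3, 1.94 and 1.93 FPKM in cKO and no more than 1.21 FPKM in WT. In these 3 genes cKO was higher without overlap (6.37% of tested genes). Ifi35 (25.9, 8.65 and 6.97 FPKM in cKO against 7.86, 5.14 and 7.04 FPKM in WT) and Tor3a (14.6, 3.19 and 4.69 FPKM in cKO against 3.66, 3.21 and 4.04 FPKM in WT) overlapped, since cKO replicate 3 of Ifi35 lay within the WT range and cKO replicate 2 of Tor3a just below it.

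The type II-like genes comprised Irf1, 3 guanylate-binding proteins (GBP) and 4 immunity-related GTPases (IRG), the last of which attack vacuoles that hold intracellular pathogens. Irf1, the factor that links interferon gamma to these genes, was among the least altered members, with 21.3, 12.4 and 11.4 FPKM in cKO and 13.7, 10.4 and 9.94 FPKM in WT (log2 fold change 0.33, SE 0.24). Gbp2, the most abundant of the GTPases, stood at 77.2, 13.9 and 39.2 FPKM in cKO against 11.7, 13.6 and 11.7 FPKM in WT. Replicates 1 and 3 were high and replicate 2 barely passed the WT range (limma, log2 fold change 1.44, SE 0.53, adjusted p = 0.768). Gbp3 had 33.7, 3.95 and 4.87 FPKM in cKO and 2.23, 1.99 and 2.74 FPKM in WT, and Gbp7 had 20.3, 4.44 and 7.96 FPKM in cKO and 4.11, 3.34 and 4.49 FPKM in WT. These 3 genes lie within 107.7 kb on chr3:142236097-142343769. Although neighbours, they differed in replicate 3, which held 41.4% of the replicate 1 excess for Gbp2 and 8.14% for Gbp3.

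Among the IRG genes, Irgm1 had the smallest p of the type II-like members. Irgm1 stood at 39.3, 11.1 and 15.2 FPKM in cKO against 7.18, 7.10 and 8.32 FPKM in WT (limma, log2 fold change 1.23, SE 0.40, adjusted p = 0.759), and at 0.72 (SE 0.16) on the log2 scale without cKO replicate 1. Igtp had 32.6, 5.25 and 9.94 FPKM in cKO and 3.99, 2.58 and 3.10 FPKM in WT. Irgm2 had 27.6, 4.15 and 10.8 FPKM in cKO and 4.94, 2.80 and 3.65 FPKM in WT. Iigp1 reached the highest type II-like fold, 29.9 in cKO replicate 1, with 31.4, 1.67 and 6.31 FPKM in cKO and 0.934, 0.695 and 1.52 FPKM in WT. In 3 of these 4 genes cKO was higher without overlap (6.37% of tested genes), with Irgm2 the exception.

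The type I-like members had median folds of 7.07, 1.28 and 1.98 over the WT mean in cKO replicates 1, 2 and 3, and the type II-like members had 6.77, 1.30 and 2.47. On the log2(FPKM + 1) scale, where low genes count for less, the median differences from the WT mean were 2.09, 0.26 and 0.69 for type I-like and 2.58, 0.28 and 1.13 for type II-like members. The order of the classes in replicate 1 thus depended on the scale. Groups did not overlap in 26 of 42 type I-like and in 5 of 8 type II-like genes, or in 18 of the 29 type I-like genes with a WT mean of at least 1 FPKM (6.37% of tested genes, and 5.85% of genes with that WT mean). The median log2 fold change was 0.84 over the type I-like members with a WT mean of at least 1 FPKM and 1.39 over the 8 type II-like members, all of which were above that level, where the median of all genes was -0.01. Replicate 2 was below the WT mean in 10 of 42 type I-like and in 0 of 8 type II-like genes. The 8 genes over 2-fold in replicate 2 were all type I-like. Among them Usp18, Ifit1, Ifit3b, Oas1a and Ifi44 had a WT mean under 1 FPKM, a level at which no type II-like gene stood. The difference between the classes was not tested, as 8 genes that share 6 libraries, and partly their position, are not independent.

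**Figure D2:**
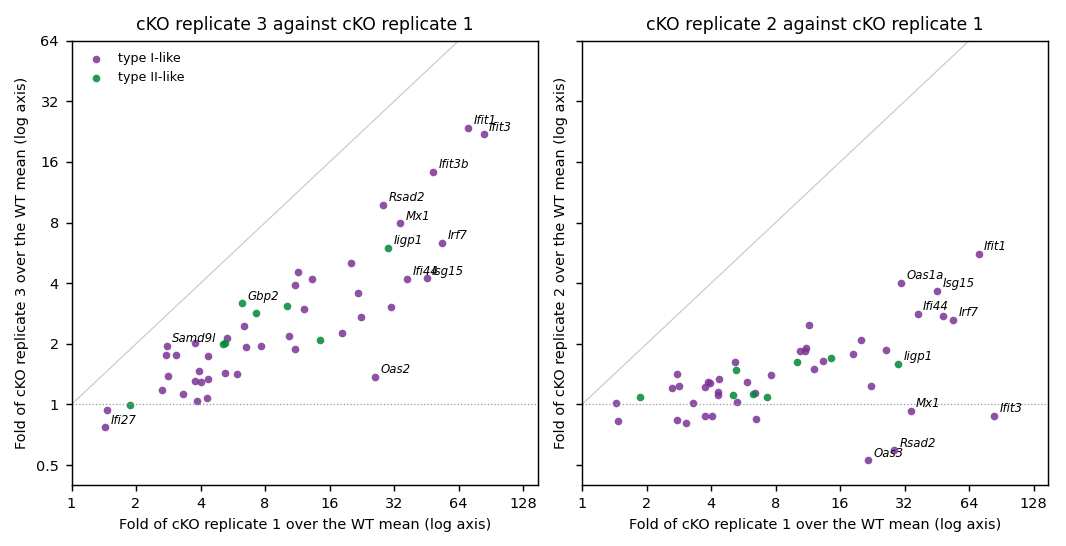
Fold over the WT mean of each member in cKO replicate 3 (left) and replicate 2 (right) against the fold in cKO replicate 1, on log axes, with 1 point per gene and colour by class. The diagonal marks equal folds and the dotted line the WT mean. All points lie below the diagonal; Ifit3, Rsad2 and Mx1 are far above 1 in replicate 3 and below 1 in replicate 2.

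The order of genes was not the same in replicates 2 and 3. Replicate 3 exceeded replicate 2 in 41 of 50 members, and the exceptions were Oas1a, Oas2, Herc6, Helz2, Ifi27, Xaf1, Ifi35, Phf11d and Irf1. The share of the replicate 1 excess over the WT mean that was seen in replicate 3 had a median of 16.4% over the 50 members, and of 4.56% in replicate 2. By role, the replicate 3 share had its highest median in IFIT genes (30.2%) and antiviral effectors (29.1%), then GBP (24.4%) and IRG genes (23.5%), and was lower in sensors (8.33%), although Ifi204 had 34.3%. For Irf1, the sole type II-like regulator, it was -0.207%, as cKO replicate 3 was just below the WT mean. The same groups did not lead in replicate 2, where the median share was 1.77% for IFIT genes and 0.694% for antiviral effectors but 7.49% for OAS genes and PKR. Members were 30 of the 100 tested genes with the largest log2 difference from the WT mean in replicate 1, 15 of the 100 in replicate 3 and 0 of the 100 in replicate 2. The ranking covered the 14714 tested genes, 49 members among them. Of these members 12 passed the filter only through cKO, so a high rank is in part built in for them. No ranking filtered on the WT mean alone is given.

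**Figure D3:**
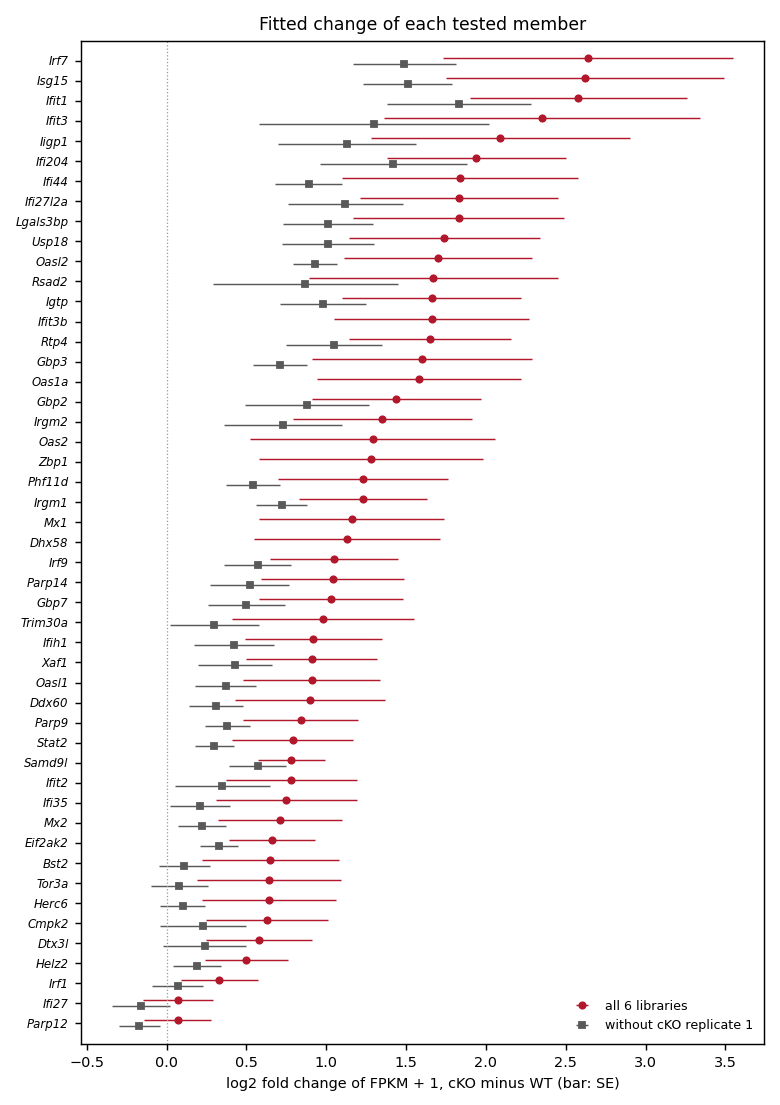
Fitted log2 fold change of FPKM + 1, cKO minus WT, for the 49 tested members, with bars of 1 SE. Red circles are the fit on all 6 libraries, grey squares the fit without cKO replicate 1, absent where a gene was then under the filter. Leaving the library out moved every grey square to the left of its circle, and Parp12 and Ifi27 to below 0.

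The genes upstream of the response were next read from lists of the pathway. Interferon genes themselves were almost silent: of 21 listed ligands 13 were at 0 in every library, 0 were tested, and all 21 together had 42 reads in the 6 libraries. Ifnb1 was at 0 throughout. The highest value in any library was 0.327 FPKM for Ifna12, 0.322 for Ifnk, 0.314 for Ifne, 0.306 for Ifng, 0.288 for Ifna9, 0.0767 for Ifna6, 0.0737 for Ifnl2 and 0.0397 for Ifnz. Ifna12 alone had no overlap, with 0.199, 0.327 and 0.137 FPKM in cKO and 0.0729, 0.0690 and 0 FPKM in WT. Ifng had 0.306, 0 and 0 FPKM in cKO and 0.0480, 0.0455 and 0.0895 FPKM in WT. These are too few reads to compare the groups, and a difference in ligands could go undetected at this depth. The sum of the receptors and kinases was level, with 195, 185 and 207 FPKM in cKO and 194, 204 and 208 FPKM in WT, and Jak1 was its largest part. Ifnar1 had 20.2, 20.98 and 21.8 FPKM in cKO and 19.5, 21.03 and 22.3 FPKM in WT. Of 9 genes, the interleukin 10 and lambda receptor subunit Il10rb was above WT in every cKO library (17.01, 17.5 and 17.6 FPKM in cKO against 12.9, 12.2 and 14.5 FPKM in WT, limma log2 fold change 0.37, SE 0.09, adjusted p = 0.713) and the kinase Jak1 was below it (67.4, 60.3 and 72.2 FPKM in cKO against 77.1, 83.4 and 79.1 FPKM in WT, log2 fold change -0.26, SE 0.10, adjusted p = 0.768). Of all tested genes 6.37% were higher without overlap, as Il10rb was, and 5.89% lower, as Jak1 was. Ifnar2 had 6.88, 8.03 and 7.32 FPKM in cKO and 5.59, 6.04 and 7.06 FPKM in WT.

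Of the transcription factors, Irf8, a factor of myeloid cells, had 6.74, 2.95 and 3.49 FPKM in cKO and 2.28, 2.32 and 2.001 FPKM in WT, and Irf5 had 2.82, 1.58 and 2.90 FPKM in cKO and 1.66, 1.30 and 1.04 FPKM in WT. Irf3 and Rela, which respond to sensors by activation of the protein, stayed close to WT: Irf3 had folds of 1.07, 1.17 and 0.796 in cKO replicates 1, 2 and 3, and Rela had 1.07, 1.13 and 0.987. In the list of sensors and adaptors 6 of 14 genes were higher without overlap (6.37% of tested genes), among them Tlr8, which was under the filter. Unc93b1, which carries endosomal Toll-like receptors, had 22.2, 11.7 and 13.9 FPKM in cKO and 9.22, 7.69 and 9.37 FPKM in WT (log2 fold change 0.75, SE 0.22). Tlr3 had 3.81, 2.38 and 2.36 FPKM in cKO and 2.03, 1.76 and 1.65 FPKM in WT, and Sting1 had 8.29, 6.35 and 5.92 FPKM in cKO and 5.63, 4.75 and 5.25 FPKM in WT. These genes were above WT in all cKO libraries. Among 12 negative regulators 2 were higher without overlap (6.37% of tested genes), Rnaseh2b (16.8, 16.1 and 16.7 FPKM in cKO against 13.9, 11.5 and 15.6 FPKM in WT) and Ptpn2 (5.95, 6.16 and 6.56 FPKM in cKO against 5.30, 4.58 and 5.78 FPKM in WT). The phosphatase gene Ptpn6, typical of blood cells, had 7.40, 2.14 and 3.09 FPKM in cKO and 1.27, 1.31 and 2.43 FPKM in WT.

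Genes of antigen processing and chemokines that are known for their answer to interferon gamma had their highest sums in cKO replicates 1 and 3. The summed level over 12 genes was 967, 212 and 548 FPKM in cKO and 148, 155 and 195 FPKM in WT, most of it from B2m, and in 6 of the 12 the groups did not overlap (6.37% of tested genes). Replicate 2 of cKO was above replicate 3 in Psmb10 (12.1 and 12.02 FPKM), Ciita (0.309 and 0.279 FPKM) and Ido1 (0.0588 and 0 FPKM). B2m, the light chain of MHC class I, had 784, 177 and 477 FPKM in cKO and 115, 126 and 164 FPKM in WT (limma, log2 fold change 1.59, SE 0.50, adjusted p = 0.743). The immunoproteasome genes Psmb9 and Psmb8 had 19.5, 3.24 and 10.1 FPKM and 32.3, 3.70 and 12.3 FPKM in cKO, against 2.41, 2.13 and 3.02 FPKM and 2.94, 2.97 and 3.10 FPKM in WT. Replicate 3 held 52.7% of the replicate 1 excess in B2m, 44.8% in Psmb9 and 31.9% in Psmb8. The median over the 12 genes was 23.2%, with 15.9% in Nlrc5, 8.75% in Psmb10, 5.27% in Ciita and 0% in Ido1, where it was 16.4% over the members. No gene of these pathway lists had an adjusted p under 0.05.

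The summed levels of 5 leukocyte marker lists were highest in cKO replicate 1, while that of plasmacytoid dendritic cells was highest in replicate 2. Those of macrophages, of all leukocytes and of T and NK cells were next highest in replicate 3. The summed level of 11 macrophage markers was 212, 81.1 and 125 FPKM in cKO and 52.2, 42.3 and 58.4 FPKM in WT, and in 8 of 11 the groups did not overlap (6.37% of all tested genes were higher in this way). The macrophage receptors Mrc1 and Mertk went against the sum, with 3.59, 5.61 and 5.46 FPKM in cKO and 4.07, 4.46 and 5.84 FPKM in WT for Mrc1, and 5.45, 4.08 and 5.90 FPKM in cKO and 5.64, 6.14 and 4.45 FPKM in WT for Mertk. Adgre1 overlapped too, with 4.94, 1.03 and 3.68 FPKM in cKO and 1.21, 1.76 and 1.91 FPKM in WT. Its cKO replicate 2 lay below every WT library. The 5 pan-leukocyte markers summed to 70.8, 21.6 and 40.4 FPKM in cKO and 13.3, 9.003 and 16.95 FPKM in WT. Ptprc (CD45) was at 4.88, 0.487 and 2.89 FPKM in cKO against 0.583, 0.440 and 0.507 FPKM in WT, so replicate 2 was at the WT level. The lists of T and NK cells, neutrophils and B cells were lower in level, with a different order of replicates 2 and 3 for B cells. Markers of T and NK cells summed to 9.69, 1.20 and 6.76 FPKM in cKO and 0.786, 1.21 and 1.37 FPKM in WT, those of neutrophils to 37.8, 2.26 and 4.60 FPKM in cKO and 2.09, 0.545 and 2.21 FPKM in WT, and those of B cells to 5.68, 1.84 and 1.73 FPKM in cKO and 1.64, 1.46 and 0.842 FPKM in WT. Replicate 1 had the highest sum for each of these 5 lists, Cd4 and Ncr1 were highest in replicate 3, and the T and NK cell markers Cd3d, Cd3g, Klrb1c and Gzma were at 0 in cKO replicate 2. The 5 plasmacytoid dendritic cell markers summed to 6.29, 105 and 7.05 FPKM in cKO and 3.94, 3.13 and 8.95 FPKM in WT, most of it from Klk1. Of this list Siglech was at most 0.141 FPKM in any library. Spib and Ccr9 were highest in cKO replicate 1, at 0.739 and 0.289 FPKM, and reached at most 0.130 and 0.106 FPKM in WT. Cox6a2 was highest in WT replicate 1, at 0.705 FPKM. For macrophage and pan-leukocyte markers the median share of the replicate 1 excess seen in replicate 3 was 47.5% and 49.1%, and in replicate 2 20.3% and 12.3%, all above the shares of the interferon-stimulated genes. The other leukocyte lists differed. In replicates 3 and 2 the shares were 59.6% and 0.557% for T and NK cells and 4.60% and 2.39% for neutrophils. They were -10.3% and -7.73% for B cells and 18.99% and 28.2% for plasmacytoid dendritic cells. Of the T and NK and the B cell markers 0 passed the filter. The part that leukocytes had in the level of the members was not tested.

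**Figure D4:**
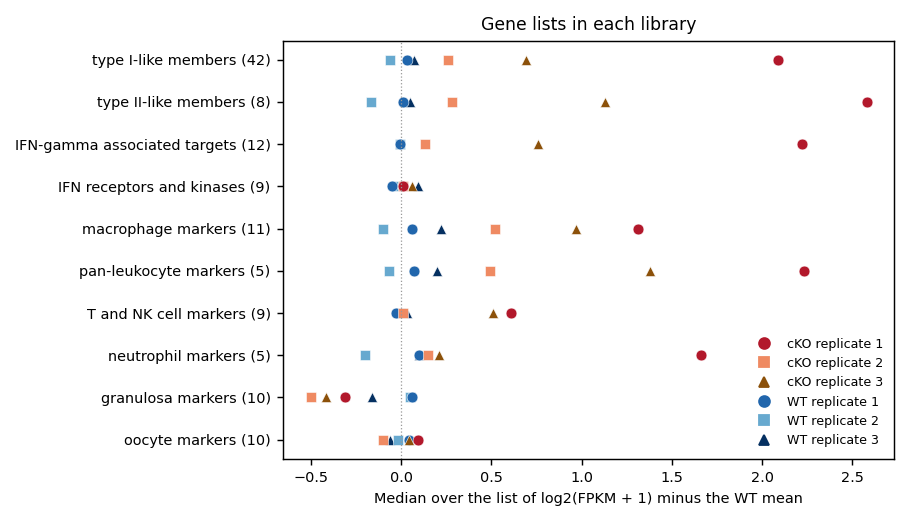
Median over each gene list of log2(FPKM + 1) minus the gene's WT mean, by library, with the number of genes in brackets and 1 symbol per library. Both member classes, the interferon gamma associated targets and the macrophage, pan-leukocyte, T and NK cell and neutrophil lists have cKO replicate 1 farthest right and replicate 3 next, while receptors and kinases and oocyte markers stay near 0.

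Oocyte markers were at like levels in the groups, and the granulosa sum was lower in cKO. Oocyte markers summed to 2254, 2125 and 2173 FPKM in cKO and 2246, 2056 and 2209.8 FPKM in WT. Granulosa markers summed to 748, 646 and 645 FPKM in cKO and 861, 827 and 749 FPKM in WT, so cKO replicate 1 nearly reached WT replicate 3. Of 10 genes 5 were lower without overlap (5.89% of tested genes), and 2 had a higher mean in cKO. Inhbb had 85.6, 67.4 and 76.02 FPKM in cKO and 67.4, 49.3 and 45.4 FPKM in WT. Amhr2 had 109, 105 and 96.5 FPKM in cKO and 114, 89.2 and 92.03 FPKM in WT. Surface epithelium markers summed to 183, 247 and 229 FPKM in cKO and 154, 125 and 141 FPKM in WT, and the sum was highest in replicate 2. That order came from the keratin genes, since Upk3b (54.9, 48.7 and 70.9 FPKM in cKO replicates 1, 2 and 3), Msln (9.03, 7.67 and 13.1 FPKM) and Lrrn4 (1.77, 1.34 and 2.85 FPKM) had their lowest cKO value in replicate 2. The remaining lists did not order the cKO libraries as the members did. Endothelial markers summed to 108, 104 and 114 FPKM in cKO and 93.9, 95.8 and 98.6 FPKM in WT. Erythroid genes had their highest sum, 572 FPKM, in cKO replicate 3, with 157 and 240.2 FPKM in cKO replicates 1 and 2 and 189, 182 and 333 FPKM in WT.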

How the data were processed

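RNA from whole ovaries was sequenced in 6 libraries, 3 cKO and 3 WT, grouped by the labels. The authors deposited FPKM per gene in 1 table; the submitters' processing notes name HISAT2 2.0.5, and the table's chromosome accessions are those of GRCm39. The sources used here give no read counter, annotation release or strandedness. FPKM times the deposited gene length gave whole reads (100% of values within 0.01 of a whole number), 16.8 to 18.7 M per library. This depth limits genes of a few reads, and counting error is only part of the spread between libraries.

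The fit used log2(FPKM + 1), which understates changes of low genes. The 14714 of 47205 genes averaging 1 FPKM or more were compared by the two-sided moderated test of limma 3.58.1 in R 4.3.3 (trended prior), with Benjamini-Hochberg adjustment over all tested genes and a threshold of 0.05. The script was tested on simulated data. Same-numbered libraries showed no clear shared deviation, so replicate numbers were not used as pairs.

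The members, the lists and the rule for named genes (in each role up to 3 members of highest mean, the 5 members of smallest p, up to 3 genes of each pathway list of smallest p, every ligand detected, and the 10 protein-coding genes outside the lists with the largest excess in cKO replicate 1) were chosen with earlier results of these data known. Other members were named after their values were seen. Alternatives were pseudocounts of 0.1 and 0.5, no filter, a filter at 5 FPKM or on the WT mean, a common total, quantile normalization, limma-voom on recovered reads, the replicate block and leaving out each library. Promoters are RefSeq windows on GRCm38.p6. One gene of the pathway lists is not reported here.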

Additional observations from a re-analysis of the deposited data

How the results depend on the processing

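Across 15 alternatives, 0 members had an adjusted limma p under 0.05, and the smallest for a named member was 0.128. Of 515 values of named members under alternatives, 3 turned direction: Parp12 to -0.17 and Ifi27 to -0.16 without cKO replicate 1, and Ifi27 to -0.06 without WT replicate 2 (Parp12 ran to 0.23 and Ifi27 to 0.28 under the other omissions). Scalings moved the median of all genes by at most 0.02 on the log2 scale. The median log2 fold change without cKO replicate 1 was 0.42 for type I-like and 0.72 for type II-like members, against 1.04 and 1.39, and over all single omissions it ran from 0.42 to 1.51 and from 0.72 to 2.02.

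Members higher at an unadjusted p under 0.05 numbered 13 with limma-voom on recovered reads, against 20, and 5 to 41 with a library left out: 41 without cKO replicate 2, 7, 5 and 8 without WT replicates 1, 2 and 3. Of all tested genes 3.64% were higher in the main fit, 2.85% without cKO replicate 1 and 3.23% with the filter on the WT mean. For the other settings, the replicate block included, no such share is given, so their counts do not set members against all genes. Members whose groups did not overlap numbered 17 of the 30 kept by the filter at 5 FPKM, which drops members by construction, and 31 to 44 with a library left out. With fewer libraries a lack of overlap is commoner. Higher without overlap were 6.37% of tested genes with all libraries and 10.8% without cKO replicate 1. For the filter at 5 FPKM and the other omissions no share without overlap is given. Those counts therefore do not set members against all genes. Pseudocounts keep the order of libraries, and the count of members without overlap has no limma-voom or block version. Over all genes, 1 was higher and 2 lower. Higher calls numbered 0 with pseudocounts of 0.1 and 0.5, no filter, 5 FPKM, the filter on the WT mean (chosen after seeing the data), quantile normalization, limma-voom and the replicate block, and 0 to 1 with a library left out. Lower calls numbered 0 with no filter, limma-voom and the replicate block, and 0 to 1 with a library left out. The cause was not tested. Deviations of same-numbered libraries correlated at 0.18, -0.08 and -0.06 for numbers 1, 2 and 3, where libraries of unlike number ran from -0.23 to 0.23. This gives no sign of pairing by number, but with 3 libraries a group, each set against its own mean, it cannot exclude it. The replicate block gave 25 members at an unadjusted p under 0.05. Members with few reads in WT, such as Ifit1 with 8, 12 and 22, have uncertain folds.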

Other observations

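Outside the interferon lists, the 10 protein-coding genes with the largest excess of cKO replicate 1 over the WT mean on the log2 scale were led by MHC class II. H2-Aa had 57.01, 1.06 and 12.9 FPKM in cKO and 0.257, 1.27 and 1.97 FPKM in WT. H2-Ab1 had 74.03, 1.44 and 12.8 FPKM in cKO and 1.07, 2.67 and 1.54 FPKM in WT, and H2-Eb1 had 44.2, 0.780 and 7.90 FPKM in cKO and 0.139, 1.55 and 1.07 FPKM in WT. Cd74, the invariant chain, had 179.6, 8.75 and 67.4 FPKM in cKO and 8.04, 10.3 and 6.62 FPKM in WT. In these 4 genes cKO replicates 1 and 3 were high and replicate 2 lay within the WT range, the pattern of Ifit3 and Rsad2.

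The MHC class I genes H2-K1 and H2-T23 also varied among WT libraries. H2-K1 had 284, 18.7 and 132 FPKM in cKO and 12.4, 33.6 and 30.6 FPKM in WT. H2-T23 had 67.8, 1.66 and 11.7 FPKM in cKO and 0.353, 3.72 and 7.23 FPKM in WT. Both belong to a multigene family whose copies can share reads, so these levels are uncertain. Ctss, a lysosomal protease of antigen-presenting cells, had 36.7, 4.24 and 17.1 FPKM in cKO and 2.08, 2.85 and 2.35 FPKM in WT, without overlap. Cd52, a leukocyte surface gene, had 19.1, 1.14 and 7.91 FPKM in cKO and 0.808, 0 and 0.430 FPKM in WT. Ly6c2, a monocyte surface gene, had 11.2, 0 and 2.30 FPKM in cKO and was at 0 in all WT libraries. Rpl34-ps1, a ribosomal protein pseudogene by its description, did not follow the members, with 349.9, 340.3 and 40.2 FPKM in cKO and 19.7, 19.7 and 28.2 FPKM in WT.

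The exonuclease gene Trex1 was listed at 0 in all 6 libraries, WT included, which does not show that the gene was silent. Adar, an RNA-editing enzyme that restrains the RNA sensors, had 23.7, 9.88 and 13.4 FPKM in cKO and 12.6, 11.9 and 10.98 FPKM in WT. Samhd1 had 34.1, 18.6 and 21.5 FPKM in cKO and 19.1, 17.98 and 18.6 FPKM in WT. Cxcl10, a chemokine that draws T cells, had 27.7, 1.32 and 9.999 FPKM in cKO and 1.16, 0.799 and 1.57 FPKM in WT, and Cxcl9 had 4.90, 0.0179 and 0.957 FPKM in cKO and at most 0.0379 FPKM in WT. These 5 genes were picked after their values were seen. Klk1, listed among plasmacytoid dendritic cell markers, was at 105 FPKM in cKO replicate 2 and at most 8.53 FPKM in the other 5 libraries, while the other markers of that list stayed under 1 FPKM.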
